A study of Mus musculus with 12 samples.

Results

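The nicotinic acetylcholine receptor subunits were examined as 8 genes chosen by name, Chrna3, Chrna4, Chrna5, Chrna6, Chrna7, Chrnb2, Chrnb3 and Chrnb4, of 54193 genes with a transcript in the files. All 8 passed the filter on low counts (a mean of 10 normalized counts or more) and were among the 18017 genes tested. RNA came from laser-microdissected substantia nigra of male mice aged 1 week, with each library from a separate mouse. The 4 groups of 3 mice were SwissOF1 (OF1) wild type (WT), OF1 hemizygous for the homeobox gene Engrailed-1 (OF1-En1+/-), C57Bl/6J (C57) WT and C57 hemizygous for Engrailed-1 (C57-En1+/-). The tissue was cut out after a cresyl violet stain, so no marker of dopaminergic neurons selected it.

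Nicotinic receptors are pentameric cation channels that open on binding acetylcholine. In dopaminergic neurons of the midbrain the alpha 4 and beta 2 subunits form the widespread high-affinity receptor, alpha 6 and beta 3 join them in receptors that are largely restricted to catecholaminergic and visual pathways, and alpha 5 is an accessory subunit. Alpha 7 forms receptors on its own, and alpha 3 with beta 4 is best known from autonomic ganglia and the habenula.

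Libraries differed in how much dopaminergic RNA they held. Th (tyrosine hydroxylase, the enzyme that limits dopamine synthesis) had 85967.7 normalized counts in SW22, an OF1-En1+/- mouse, and 121821.2 in C572S, a C57 WT mouse, and between 8.80 and 1446.9 in the other 10. Slc6a3, the dopamine transporter, was at 205403.0 and 350646.7 in these mice and at most 3229.8 elsewhere. Engrailed-1 (En1) itself had 9.44, 15.2 and 1.11 normalized counts in OF1 WT mice (SW31, SW7, SWG) and 0.871, 1070.9 and 11.7 in C57 WT mice (C5710, C572S, C5743). It had 690.6 in SW22 and 9.41 in C572 and was at 0 in the other 4 En1+/- mice, so the genotype of a library could not be read from it. Fold changes and slopes of the subunits are therefore also given without both. The library of C57-En1+/- mouse C572 had a normalized count of Xist, the RNA of the inactive X chromosome, of 1330.5, against at most 34.9 in the others, and Ddx3y on the Y chromosome was at 0, so the sex or the label of this mouse is in doubt. Its summed level of 9 motor and oculomotor neuron genes was 848.1 TPM, against 20.0 to 130.2 in the others. Estimated reads ranged from 13538864 to 168741283 per library. In bulk tissue, fewer cells of a type and less RNA per cell cannot be told apart.

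The genes lie in 5 places of GRCm39. Chrna6 (chromosome 8, 27893240 to 27903974, minus strand) and Chrnb3 (chromosome 8, 27858739 to 27889758, plus strand) are neighbours 3482 bp apart. Chrna5 (54888164 to 54918184, plus strand), Chrna3 (54917395 to 54933941, minus strand) and Chrnb4 (54935438 to 54956076, minus strand) form a cluster on chromosome 9, in which the exons of Chrna5 and Chrna3 share 790 bp on opposite strands. Chrna4 lies on chromosome 2 (180660173 to 180685339), Chrna7 on chromosome 7 (62731494 to 62862322) and Chrnb2 on chromosome 3 (89653502 to 89671953), the last with 1365 bp of exon shared with Adar on the other strand. The library kits do not record strand, so reads of those shared exons cannot be told apart.

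**Figure D1:**
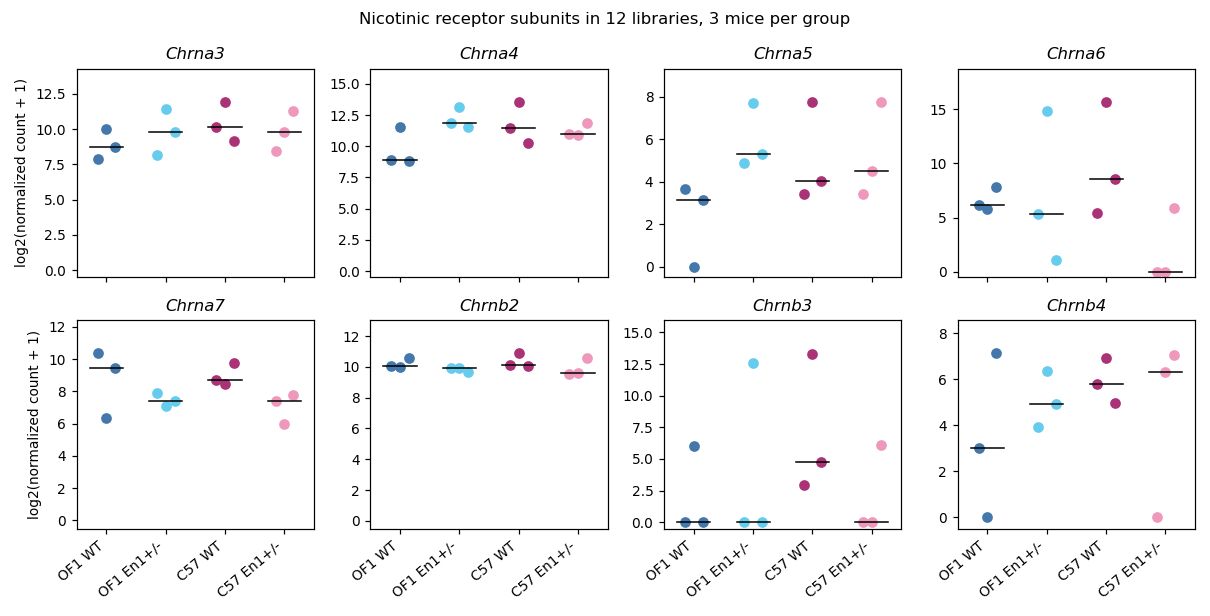
Normalized counts of the 8 subunits, as log2 of the count plus 1 (vertical axis), in the 4 groups (horizontal axis), with 1 point per mouse and a line at the median of each group. In Chrna6 and Chrnb3 the highest points belong to SW22 (OF1-En1+/-) and C572S (C57 WT), whereas Chrnb2 lies within a narrow band in all 12 libraries.

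Chrna6 and Chrnb3 were high in 2 libraries and low or absent in the rest. Among OF1 WT mice, Chrna6 had 70.8 normalized counts in SW31, 55.0 in SW7 and 226.5 in SWG, and among OF1-En1+/- mice it had 38.7 in SW21, 28805.5 in SW22 and 1.13 in SWB. Among C57 WT mice it had 43.1 in C5710, 49823.1 in C572S and 367.3 in C5743, and among C57-En1+/- mice 0 in C5713 and C572 and 59.2 in C575. SW22 and C572S were 78.4 and 136.0 times the highest of the other 10 libraries, and the groups of each strain overlapped.

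Chrnb3 had 0 reads in 6 of the 12 libraries. Its normalized count was 6064.3 in SW22 and 10270.9 in C572S, 89.5 and 152.0 times the highest of the others. Between these extremes lay 65.5 in SW7, 6.53 in C5710, 26.5 in C5743 and 67.7 in C575. The smallest level that 3 reads represent was 0.617 to 7.08 in normalized counts, depending on the library, so a 0 does not show absence below that. On the length-scaled TPM, Chrna6 exceeded Chrnb3 6.79-fold in SW22 and 6.81-fold in C572S. In the 4 other libraries with reads of Chrnb3 the ratio ran both lower and higher, at 1.38 in SW7, 1.44 in C575, 10.4 in C5710 and 22.8 in C5743, and rests on 15 to 129 reads of Chrnb3.

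Chrna4, the main alpha partner of Chrnb2, was the most abundant subunit by the median TPM over libraries. Its levels were 467.2, 3057.3 and 452.9 normalized counts for OF1 WT and 3751.6, 9094.1 and 3039.7 in OF1-En1+/- mice. It was 2769.1, 11824.1 and 1247.2 in C57 WT and 1982.8, 1955.5 and 3801.7 in C57-En1+/- mice, in the order of mice given for Chrna6. SW22 and C572S were again the highest, at 2.39 and 3.11 times the highest of the other 10, and SW7 was the OF1 WT library that overlapped with the OF1-En1+/- mice. Chrnb2 varied least of the 8, between 734.9 and 1891.7, a 2.57-fold range.

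Chrna3 was detected in every library, between 238.3 in SW31 and 3845.8 in C572S. After C572S came SW22 (2732.2) and C575 (2538.5), the latter with a Th count of only 293.3. Chrna5 followed the same 3 libraries, at 218.2 in C572S, 213.5 in C575 and 209.3 in SW22. It was 11.8, 0 and 7.77 in OF1 WT mice and at most 38.3 in the remaining libraries. Its exons overlap those of Chrna3, as given above, and the part of shared reads was not tested. Chrnb4 was low throughout, from 0 in SW7 and C5713 to 141.0 in SWG.

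Chrna7 had another order of libraries. Its levels, in the same order of mice, were 1319.0, 81.8 and 704.9 normalized counts for OF1 WT and 235.9, 137.2 and 167.7 in OF1-En1+/- mice. In C57 mice it was 424.3, 354.0 and 872.3 in WT and 171.0, 61.7 and 217.0 in En1+/- mice. In C57 mice every WT library was above every En1+/- library, and in OF1 mice SW7 lay below all 3 En1+/- libraries.

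Promoter sequence is shown for 4 of the subunits, with slopes on Th and Slc6a3 from 0.23 (Chrna3) to -0.08 (Chrna7), as described further on. The RefSeq table of promoters (build GRCm38.p6) held 6 of the 8 genes, not Chrna6 and Chrnb3. The windows are the 250 bases before the start of Chrna3 (chr9:55026563-55026812), Chrna4 (chr2:181039178-181039427), Chrna7 (chr7:63212527-63212776) and Chrnb2 (chr3:89764633-89764882), all on the minus strand and written 5′ to 3′. Capitals mark each GC box (GGGCGG, on either strand).
Chrna3: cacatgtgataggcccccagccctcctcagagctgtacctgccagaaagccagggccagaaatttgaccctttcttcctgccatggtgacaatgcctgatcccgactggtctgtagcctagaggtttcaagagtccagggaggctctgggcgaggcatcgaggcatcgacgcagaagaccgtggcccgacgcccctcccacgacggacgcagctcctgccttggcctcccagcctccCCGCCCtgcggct
Chrna4: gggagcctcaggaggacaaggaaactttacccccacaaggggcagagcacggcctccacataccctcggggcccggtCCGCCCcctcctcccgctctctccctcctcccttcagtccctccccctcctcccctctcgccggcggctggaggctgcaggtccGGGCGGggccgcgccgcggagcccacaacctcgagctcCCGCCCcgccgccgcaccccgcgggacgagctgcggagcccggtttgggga
Chrna7: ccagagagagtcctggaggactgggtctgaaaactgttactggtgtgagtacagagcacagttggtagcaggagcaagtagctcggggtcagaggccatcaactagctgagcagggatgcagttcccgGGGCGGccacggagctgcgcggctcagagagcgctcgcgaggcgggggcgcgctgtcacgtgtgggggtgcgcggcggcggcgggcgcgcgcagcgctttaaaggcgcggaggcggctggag
Chrnb2: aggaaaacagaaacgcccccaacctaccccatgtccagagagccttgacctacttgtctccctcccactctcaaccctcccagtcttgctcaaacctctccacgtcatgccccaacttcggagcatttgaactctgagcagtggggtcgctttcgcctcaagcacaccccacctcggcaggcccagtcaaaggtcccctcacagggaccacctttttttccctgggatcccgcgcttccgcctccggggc
Chrna4 held 3 GC boxes, Chrna3 and Chrna7 1 each and Chrnb2 0, and 32.7% of the 32851 windows of this length held at least 1. The GC content was 63.2% in Chrna3, 74.4% in Chrna4, 67.2% in Chrna7 and 59.6% in Chrnb2, above the median of 52.4% over all windows. The homeodomain core TAATTA (in 4.8% of all windows, either strand) had no match in these 4.

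By TPM, which allows genes to be compared, the median over the 12 libraries was 28.5 for Chrna4, 10.3 for Chrna3, 6.46 for Chrnb2 and 4.75 for Chrna7. It was 0.803 for Chrna6, 0.511 for Chrnb4, 0.289 for Chrna5 and 0.0363 for Chrnb3. Chrna4 was above Chrna3 in 11 of 12 libraries, but Chrna3 was above Chrnb2 in 9, Chrnb2 above Chrna7 in 8 and Chrnb4 above Chrna5 in 4, so these neighbours did not keep 1 order across libraries. In SW22 and C572S the order was different, with Chrna6 at 444.5 and 784.2 TPM first.

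**Figure D2:**
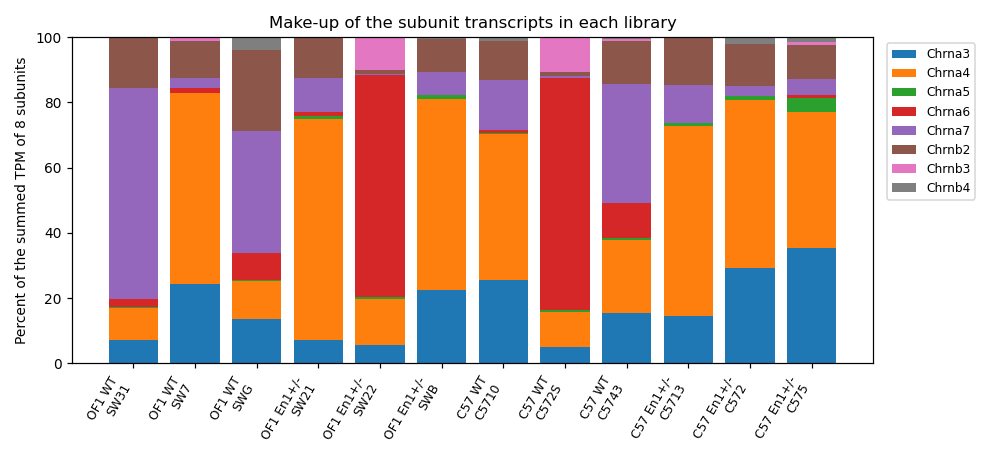
Share of each subunit in the summed TPM of the 8 subunits (vertical axis, percent) in each library (horizontal axis). Chrna6 holds 68.0% in SW22 and 71.1% in C572S and at most 10.5% elsewhere, while Chrna4 or Chrna7 leads in the other 10 libraries.

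The summed TPM of the 8 subunits was 653.6 in SW22 and 1102.4 in C572S, and 28.1 to 91.1 in the other 10 libraries. Chrna4 led in 7 of the 10, with 41.6% of the sum in C575 to 67.8% in SW21. Chrna7 led in the remaining 3, with 64.6% in SW31, 37.3% in SWG and 36.6% in C5743. These 3 libraries also had the highest summed TPM of 11 genes of subthalamic and posterior hypothalamic neurons, 1712.1, 1573.1 and 1809.1, against 108.7 to 610.9 in the others. Foxa1 and Lmx1a in that list are also genes of dopaminergic neurons. Its part in the levels of Chrna7 was not tested.

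How much each subunit changed with Th and Slc6a3 was estimated within groups. The measure was the slope of the subunit's log2 expression on the mean log2 level of both genes, which gives the size of a change, not how closely it followed. With edgeR's quasi-likelihood test, 1 of the 8 was called, against 0.0444% of all 18017 genes. Chrnb3 had a slope of 1.30 (SE 0.13, adjusted p = 0.00741). Chrna6 had 0.92 (SE 0.16) and did not pass (adjusted p = 0.204), although its unadjusted p was 0.000243.

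Among the others, the slope was 0.31 (SE 0.13) for Chrna5, 0.23 (SE 0.06) for Chrna3, 0.20 (SE 0.06) for Chrna4 and 0.16 (SE 0.16) for Chrnb4. Chrnb2 had 0.04 (SE 0.03) and Chrna7 -0.08 (SE 0.08). None of these 6 passed (adjusted p from 0.62 to 1.0), and 5 of the 8 subunits had an unadjusted p below 0.05, against 4.7% of all genes. The median slope of the 8 was 0.22 and that of all genes tested was -0.0022. DESeq2 called Chrnb3 (adjusted p = 0.00128), Chrna6 (0.000827) and Chrna3 (0.0186), against 0.805% of all genes.

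**Figure D3:**
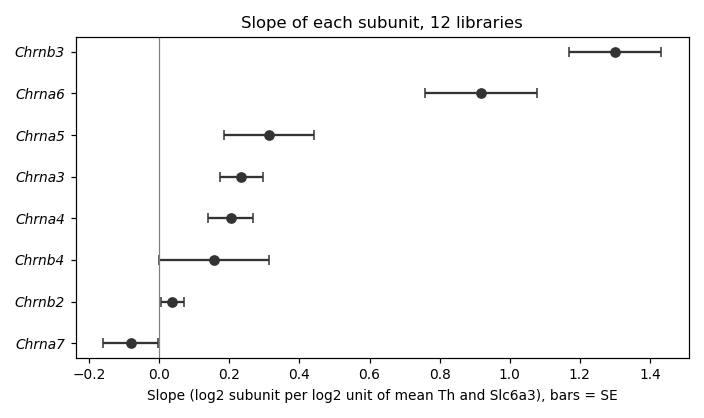
Slope of each subunit on the mean log2 level of Th and Slc6a3 (horizontal axis, log2 units per log2 unit), with bars of 1 SE, in the edgeR fit of 12 libraries. Chrnb3 (1.30) and Chrna6 (0.92) stand to the right of the other 6, which lie between -0.08 and 0.31.

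The call rested on few libraries. Without SW22 and C572S no gene was called, and Chrnb3 had a slope of 2.68 (SE 0.93, adjusted p = 0.952) and Chrna6 0.52 (SE 0.91, adjusted p = 0.976). The slope was then 0.50 (SE 0.24) for Chrna3, 0.43 (SE 0.23) for Chrna4, 0.0002 for Chrna5, 0.02 (SE 0.12) for Chrnb2, -0.13 (SE 0.93) for Chrnb4 and -0.39 (SE 0.35) for Chrna7. In that edgeR fit 1 of the 8, Chrnb3, had an unadjusted p below 0.05 (0.0208), against 813 of 18126 genes. Leaving out single libraries, Chrnb3 was not called without C572S (adjusted p = 0.243), SW22 (0.599), SW21 (0.0541) or SWB (0.067).

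**Figure D4:**
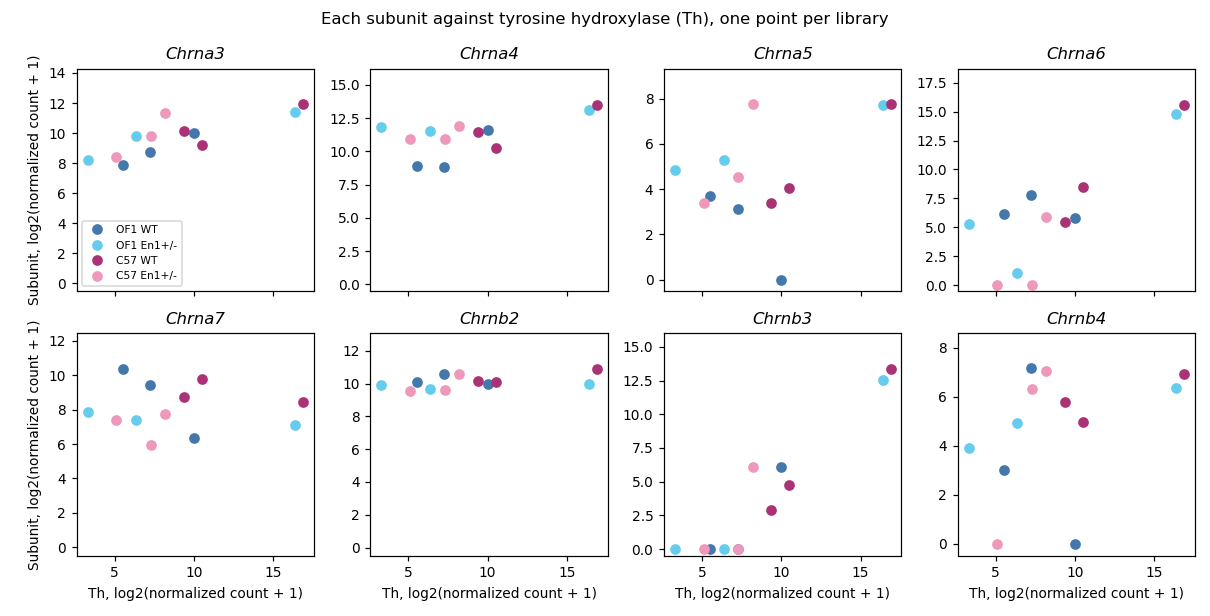
Each subunit (vertical axes) against Th (horizontal axis), both as log2 of the normalized count plus 1, with 1 point per library coloured by group. Chrna6 and Chrnb3 reach their highest points at the 2 highest Th values, while Chrnb2 stays level.

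Among the 10 libraries without SW22 and C572S, correlations are given as descriptions, since the points share library depth and tissue composition. Chrnb3 had the highest Spearman's rho with Th, 0.847 (Pearson's r 0.767), with 6 of its 10 values at 0 reads, and Chrna3 had 0.685 (0.619). Chrna6 had 0.479 (0.418), Chrnb2 0.455 (0.327) and Chrnb4 0.333 (0.172). Chrna4, Chrna5 and Chrna7 had -0.00606, -0.248 and -0.0182. Without C5743 and SW21, the libraries farthest from the median of Th, rho was 0.862 for Chrnb3 (r 0.774), 0.81 for Chrna3 (r 0.69) and 0.19 for Chrna6 (r 0.439). As deviations from the group means over the 10 libraries, rho was 0.689 for Chrnb3, 0.842 for Chrna3 and -0.0182 for Chrna6. With Slc6a3 the rho of the 8 lay between -0.442 (Chrna5) and 0.224 (Chrna6).

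Over all 12 libraries, the 3 protein-coding genes with the most similar order of libraries to each subunit (Spearman's rho, among genes averaging 50 normalized counts or more) did not include another subunit or Th. For Chrna6 they were Alg2 (0.949), Mier2 (0.949) and Cdkl2 (0.942), and for Chrnb3 Zbtb22 (0.929), B4galt4 (0.929) and Ptpn5 (0.914). Th was 8th for Chrnb3 (0.885), 31st for Chrna3 (0.818) and 554th for Chrna6 (0.687).

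Between genotypes, no subunit was called by edgeR in either strain. In OF1 mice 0 of 8 passed, against 0.0% of all genes, and 2 of 8 had an unadjusted p below 0.05, against 9.18%. DESeq2 called 0 of the 5 subunits for which it gave an adjusted p (not Chrna5, Chrna6 and Chrnb3), with 1.12% of all genes. The median log2 fold change of the 8 was 1.61, against -0.0167 over all genes, and turned to -0.81 without SW22 and C572S. Chrna5 (log2 fold change 3.87, SE 1.69, adjusted p = 0.536) did not overlap between the groups, with OF1-En1+/- mice higher, and Chrnb2 (-0.39, SE 0.33, adjusted p = 0.755) did not overlap, with them lower. Such separation held for 15.7% of all genes. That of Chrna5 rests on 5, 0 and 7 reads in OF1 WT mice and 16, 90 and 34 in OF1-En1+/- mice. Chrna4 had 1.99 (SE 0.94, adjusted p = 0.558), Chrna6 6.33 (SE 3.23, adjusted p = 0.585) and Chrnb3 6.41 (SE 3.53, adjusted p = 0.613). The estimate was 1.22 (SE 0.98) for Chrna3, -0.27 (SE 1.63) for Chrnb4 and -1.96 (SE 0.78) for Chrna7. Without SW22 and C572S, Chrna6 became -2.60 and Chrnb3 -7.91, the latter with 0 reads in both remaining OF1-En1+/- mice, so that its size depends on the prior count of the fit. In that fit Chrna5 had 2.40, Chrna4 1.35, Chrna3 0.087, Chrnb2 -0.44, Chrnb4 -1.19 and Chrna7 -1.80.

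In C57 mice 0 of 8 passed, against 0.0% of all genes, and 2 of 8 had an unadjusted p below 0.05, against 8.57%. DESeq2 called 0 of the same 5, with 0.411% of all genes. The median log2 fold change of the 8 was -0.80, against -0.0489 over all genes, and turned to 0.41 without SW22 and C572S. Chrna6 had -9.59 (SE 3.75, adjusted p = 0.558), which became -3.34 without both libraries, and Chrnb3 had -7.13 (SE 3.60, adjusted p = 0.611), which became 0.46. Chrna7 had -1.88 (SE 0.77, adjusted p = 0.558) and was the only one of the 8 whose groups did not overlap, against 14.3% of all genes. The estimate was -1.03 (SE 0.92) for Chrna4, -0.56 (SE 0.97) for Chrna3, -0.42 (SE 0.33) for Chrnb2, 0.021 (SE 1.44) for Chrna5 and 0.056 (SE 1.60) for Chrnb4. Without SW22 and C572S it was 0.36, 0.55, -0.11, 2.69 and 0.75 for these genes, and -2.11 for Chrna7.

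The interaction of strain and genotype, the effect in C57 minus that in OF1 mice, called 0 of 8 by edgeR (0.0% of all genes) and 0 of 5 by DESeq2 (0.233%). At an unadjusted p below 0.05 there were 3 of 8, against 7.07% of all genes. These were Chrna6 at -15.92 (SE 4.94), Chrnb3 at -13.54 (SE 5.04) and Chrna4 at -3.03 (SE 1.31), each with an adjusted p of 0.691. SW22 and C572S, the highest libraries for these 3 genes, belong to OF1-En1+/- and C57 WT mice. Without both, Chrna6 had -0.74, Chrnb3 8.37 (SE 5.26) and Chrna4 -0.99, and none of the 8 had an unadjusted p below 0.05. Both remaining OF1-En1+/- mice had 0 reads of Chrnb3, so the size of its value depends on the prior count of the fit. The estimate was -1.78 for Chrna3, -3.85 for Chrna5, 0.079 for Chrna7, -0.03 for Chrnb2 and 0.33 for Chrnb4, and 0.46, 0.29, -0.32, 0.33 and 1.94 without both libraries.

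Chrna7 had a negative estimate for En1+/- mice in both strains, at -1.96 (SE 0.78, adjusted p = 0.505) in OF1 and -1.88 in C57 mice, and neither passed. In OF1 mice the estimate was -1.12 without SW31, the WT library with the highest level. The lowest count, 61.7, was in C57-En1+/- mouse C572, whose sex or label is in doubt. Leaving out 1 library at a time, C572 included, gave -2.25 to -1.37 in C57 mice (lowest adjusted p = 0.34, edgeR). The mean over strains called 0 of 8 (0.0% of all genes) and was -1.92 (SE 0.55) for Chrna7, with an unadjusted p of 0.00456 and an adjusted p of 0.33, and DESeq2 gave -1.88 with an adjusted p of 0.0305, calling 1.33% of all genes. Without SW22 and C572S the edgeR estimate was -1.95 (adjusted p = 0.31). For the other subunits the mean over strains was 1.94 for Chrna5, 0.48 for Chrna4, 0.33 for Chrna3, -0.11 for Chrnb4, -0.36 for Chrnb3, -0.40 for Chrnb2 and -1.63 for Chrna6. Without both libraries it was 2.54, 0.86, 0.32, -0.22, -3.73, -0.28 and -2.97 in that order. The value of Chrnb3 again includes a group with 0 reads, so its size depends on the prior count of the fit. The subthalamic and posterior hypothalamic list had lower medians in En1+/- mice of both strains, but did not follow Chrna7 in every library. The summed TPM of the list was 399.6 to 1712.1 in OF1 WT and 111.3 to 142.0 in OF1-En1+/- mice. In C57 mice it was 255.5 to 1809.1 in WT and 108.7 to 505.5 in En1+/- mice. SW7 had the list at 399.6, above all OF1-En1+/- mice, but Chrna7 below them. C572S had the list at 255.5, below C5713 (505.5) and C575 (386.3), but Chrna7 above both. Of the En1+/- libraries, C572 had the lowest value of both the list and Chrna7. Of the 11 genes of the list none was at 0 in all libraries, and 10 had a lower estimate in En1+/- mice over both strains. The median log2 fold change of all genes tested was -0.0198. With edgeR 0 passed (0.0% of all genes), whereas genes such as Nos1 and Tac1 passed with DESeq2, which called 1.33% of all genes. The part of the list in the result was not tested.

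Between strains, 0 of 8 subunits were called among WT mice, against 1.03% of all genes, and 0 of 8 among En1+/- mice, against 0.927%. The mean over genotypes called 0 of 8 as well, against 2.0%. DESeq2 called 0 of the 5 with an adjusted p in each, with 2.53%, 2.46% and 3.62% of all genes. The median log2 fold change of OF1 over C57 mice was -1.86 for the subunits in WT mice and 0.21 in En1+/- mice. Leaving out SW22 and C572S gave -0.24 and -0.63.

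Among WT mice the log2 fold change of OF1 over C57 was -7.18 for Chrnb3, -7.13 for Chrna6, -3.69 for Chrna5, -1.99 for Chrna4, -1.73 for Chrna3, -0.44 for Chrnb4, -0.16 for Chrnb2 and 0.35 for Chrna7. With both of these libraries left out, the values were 0.41, -0.80, -1.01, -0.60, -0.62, 0.26, 0.15 and 0.11. Among En1+/- mice it was 8.79 for Chrna6, 6.36 for Chrnb3, 1.04 for Chrna4, 0.27 for Chrna7, 0.15 for Chrna5, 0.053 for Chrna3, -0.13 for Chrnb2 and -0.77 for Chrnb4. Without both libraries these were -0.062, -7.96, 0.40, 0.43, -1.30, -1.08, -0.18 and -1.68. Leaving them out turned the sign of Chrnb3 in both genotypes, of Chrnb2 and Chrnb4 among WT mice and of Chrna3, Chrna5 and Chrna6 among En1+/- mice. For Chrnb3 among En1+/- mice (-7.96, SE 4.53), both remaining OF1 libraries had 0 reads. The size of that value, and of the Chrnb3 mean over genotypes without both libraries, therefore depends on the prior count of the fit. The mean over genotypes was -1.77 for Chrna5, -0.84 for Chrna3, -0.60 for Chrnb4, -0.48 for Chrna4, -0.41 for Chrnb3, -0.15 for Chrnb2, 0.31 for Chrna7 and 0.83 for Chrna6, and for these -1.15, -0.85, -0.71, -0.10, -3.77, -0.018, 0.27 and -0.43 without both libraries.

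Other genes of the cholinergic system were read from lists of names. Of 8 further nicotinic subunits, which form receptors of muscle and hair cells or minor neuronal types, 3 were tested and 0 were called in any genotype comparison or slope. Chrna2, a further neuronal alpha subunit, was lower in OF1 than in C57 mice over both genotypes by edgeR (adjusted p = 0.0151) and DESeq2 (adjusted p = 9.02e-05). It had 0 reads in 5 of the 6 OF1 libraries and 1.13 normalized counts in SWB, against 80.6, 52.5 and 17.5 in C57 WT and 1.60, 23.0 and 50.6 in C57-En1+/- mice. The values of SWB and C5713 rest on 1 read each. It did not pass with edgeR without SW22 and C572S (adjusted p = 0.102). Within WT mice edgeR gave an adjusted p of 0.0852 and DESeq2 one of 0.00455. Chrnd was at 0 in every library. Of 14 genes listed under receptor assembly and Ly6 modulators, 11 were tested and 0 were called in any comparison. The highest by median TPM were Nptn (462.9), Ly6h (285.8) and Ly6e (198.2), and Ric3, a chaperone of alpha 7 named after its values were seen, had 28.7. Nptn, an adhesion protein, is neither an assembly factor nor a Ly6 protein, and had 312.8 to 629.1 TPM. The summed TPM of the 14 genes, Nptn included, varied from 1103.8 to 1501.2 over the libraries. That of the 8 subunits was 28.1 to 91.1 outside SW22 and C572S, which held 653.6 and 1102.4. Single genes of the list differed in spread, with Lypd6 at 165.2 to 5992.7 normalized counts and Nptn at 11329.1 to 20387.7. Of 5 muscarinic receptors, Chrm5, the type known from dopaminergic neurons, had a slope on Th and Slc6a3 of 0.29 (SE 0.11, adjusted p = 0.955) and was the only 1 of the 5 with a positive estimate. The median of the 5 was -0.069 and 0 passed. Of 20 dopaminergic genes, all had positive slopes and edgeR called 3, against 0.0444% of all genes. These were Th and Slc6a3, which define the measure, and Pitx3 (0.89, SE 0.10, adjusted p = 0.0307). The slopes of Th and Slc6a3 are therefore no result in any count of this list. DESeq2 called 10, against 0.805% of all genes. Without SW22 and C572S only 16 reached the filter on low counts, of which 8 had positive and 8 negative slopes and 0 passed. For the 8 that turned negative, the positive sign therefore depended on those 2 libraries. Genes below the filter were not fitted without them.

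Each of the 8 genes was read mostly through 1 transcript. Over all reads of the 12 libraries, Chrna6 and Chrnb4 had 100% of their reads in 1 annotated transcript, Chrna4 99.46% and Chrna7 99.07%. Chrna3-203 held 89.71% of Chrna3, Chrna5-204 88.25% of Chrna5, Chrnb3-201 85.53% of Chrnb3 and Chrnb2-201 88.67% of Chrnb2. In C572, however, Chrnb2-202, a model with no defined coding sequence, took 75.04% of the Chrnb2 reads, against 32.63% in C572S, 19.13% in C575 and 0 in the other 9 libraries.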

How the data were processed

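The authors quantified transcripts with Salmon against GRCm39 and deposited, for each of 12 libraries, estimated counts of reads and TPM per transcript. The deposited TPM were used to compare genes. The deposited transcript and effective lengths served only as offsets. Of 140790 transcripts, 139555 (99.1%) matched GENCODE M39. Gene sums of the estimated counts were rounded, and 18017 genes averaging 10 normalized counts or more were fitted with edgeR 4.0.16 in R 4.3.3 (TMM, robust quasi-likelihood, 1 mean per group). The slope fit added the mean log2 level of Th and Slc6a3 (prior count 2). Adjusted p are Benjamini-Hochberg over all genes tested, with a threshold of 0.05. The smallest exact permutation p for 3 mice against 3 is 0.1.

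The subunits and gene lists were chosen with earlier results of these data known. The rule was to name all 8 subunits in each comparison and, of the other lists, genes past the threshold, at 0 in every library or highest by TPM, at most 3 a list and comparison. Chrm5, Ric3, Foxa1 and Lmx1a were added after their values were seen, and 1 result that the rule would name is not reported here. The fits were run on simulated counts with the same spread set for every gene, which does not show how they perform at the spread of these libraries. Libraries within each group differed beyond sampling noise, so each counted as 1 sample. DESeq2 1.42.0, RLE factors, no filter, transcript-length offsets, the compared groups alone, and leaving out libraries were the alternatives. Tables and figures used Python 3.11.15, pandas 2.3.3, scipy 1.17.1 and matplotlib 3.10.9. Floors cover counting error only, whereas the SE of the edgeR fits include the spread between mice.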

Additional observations from a re-analysis of the deposited data

How the results depend on the processing

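With DESeq2 the number of genes called was 202 for the OF1 genotype comparison, 74 for C57, 240 for the mean over strains, 42 for the interaction, 456 and 444 for strains among WT and En1+/- mice, 653 for their mean and 145 for the slope. edgeR on the compared groups alone gave 114 and 109 for the strain comparisons. Without SW22 and C572S edgeR gave 1 for OF1, 1 for the mean genotype effect, 106 and 108 for strains and 0 for the slope. With Th alone the slope called 3 genes and with no group means 38.

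Of the subunits, DESeq2 added Chrna3 (0.23) and Chrna6 (0.89) to the slope calls, and the fit with no group means added Chrna6 (0.79). Chrnb3 lost its call with no filter (1.30, adjusted p = 0.0807), with Slc6a3 alone (1.10, adjusted p = 0.0739) and without SW22 and C572S (2.68). Without those 2 libraries the sign changed for Chrna6 (-2.60) and Chrnb3 (-7.91) in OF1, for Chrna3 (0.55), Chrna4 (0.36) and Chrnb3 (0.46) in C57, and for the interaction of Chrna3 (0.46), Chrna5 (0.29), Chrna7 (-0.32), Chrnb2 (0.33) and Chrnb3 (8.37). It also changed between strains for Chrnb2 (0.15), Chrnb3 (0.41) and Chrnb4 (0.26) in WT mice, for Chrna3 (-1.08), Chrna5 (-1.30), Chrna6 (-0.06) and Chrnb3 (-7.96) in En1+/- mice and for Chrna6 (-0.43) over both, and for the slope of Chrnb4 (-0.13). With length offsets Chrna5 in C57 was -0.02 and the interaction of Chrnb2 0.03, which was 0.0 with DESeq2. The mean genotype effect of Chrna7 passed with DESeq2 (-1.88). The cause was not tested.

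Leaving out 1 library at a time gave 0 to 3 calls in OF1, 0 to 1 in C57, for the mean genotype effect and for the interaction, 108 to 179 for strains among En1+/- mice, 127 to 188 among WT mice and 2 to 12 for the slope. Ranges that crossed 0 were -2.72 to 7.26 for Chrna6, -8.04 to 14.43 for Chrnb3 and -1.19 to 3.73 for Chrnb4 in OF1. In C57 they were -1.60 to 0.55 for Chrna3, -1.48 to 0.37 for Chrna4, -2.34 to 2.69 for Chrna5, -15.16 to 0.51 for Chrnb3 and -0.77 to 0.75 for Chrnb4. The interaction ranged from -21.56 to 0.91 for Chrnb3, -0.75 to 0.63 for Chrna7, -0.46 to 0.29 for Chrnb2 and -3.66 to 1.25 for Chrnb4. The mean genotype effect ranged from -0.24 to 0.88 for Chrna3, -6.15 to 1.56 for Chrna6, -7.59 to 3.66 for Chrnb3 and -0.57 to 1.90 for Chrnb4. Between strains in WT mice it was -0.48 to 0.88 for Chrna7, -0.36 to 0.15 for Chrnb2, -15.18 to 0.50 for Chrnb3 and -4.43 to 0.24 for Chrnb4. In En1+/- mice it was -1.09 to 1.09 for Chrna3, -1.30 to 2.52 for Chrna5, -0.27 to 16.64 for Chrna6, -0.11 to 0.64 for Chrna7, -0.32 to 0.30 for Chrnb2, -8.09 to 14.39 for Chrnb3 and -1.68 to 0.06 for Chrnb4. Over both it was -1.25 to 0.23 for Chrna4, -3.70 to 4.75 for Chrna6, -0.10 to 0.57 for Chrna7, -0.25 to 0.07 for Chrnb2 and -7.63 to 3.61 for Chrnb3. With no sign change, Chrna6 in C57 ranged from -17.44 to -3.22 and Chrna7 in OF1 from -2.48 to -1.12.

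As deviations from group means, rho with Th was 0.467 for Chrna4, -0.0182 for Chrna6, -0.455 for Chrna7, 0.115 for Chrnb2 and 0.689 for Chrnb3, and rho of Chrna5 with Slc6a3 was -0.139. Without the 2 libraries farthest from the median, rho of Chrna4 with Th was 0.524. These moved by more than a jackknife SE. DESeq2 gave no adjusted p for 21 of the results, those of Chrna5, Chrna6 and Chrnb3 in the 7 comparisons other than the slope. No paired analysis was possible because the labels give no replicate number that groups share.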
